A study of Saccharomyces cerevisiae with 8 samples.

Results

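XKS1, AMS1 and MLO1 are 3 of the 6002 protein-coding genes of budding yeast, Saccharomyces cerevisiae, and their promoters share a change of peak call. They were chosen by measured values, namely an accessible promoter region listed at 180 min and not at 0 min in both strain codes of the study. That pattern is therefore a description here and was not tested. By summit calls 22 genes have it, so the pattern alone does not pick out these 3. In the 4 peak lists used, the members account for 6 of 27173 sub-peaks, where a sub-peak is 1 summit within a called region.

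The assay was ATAC-seq, where a transposase cuts exposed DNA and adds sequencing adapters to it. The cells were haploid, of mating type a and of S288c background. CEN4 and CEN4* cells were compared, each before and 180 min after 1 uM beta-estradiol. In the CEN4 control the chromosome IV centromere has no lox sites beside it. In CEN4* it has, and the cells are called cen4- once Cre recombinase has cut it out. Each of the 4 groups had 2 samples, while the lists are 1 for each of the codes 8 and 11 at each time. No label says which code is which strain or whether both experiments of a group went into 1 list, so there is no replicate error to set a difference against. The labels do not say which promoter drives Cre.

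In budding yeast an active or poised promoter usually holds a short nucleosome-depleted stretch just upstream of the gene, and ATAC-seq reads it as a peak. XKS1 encodes xylulokinase, which phosphorylates xylulose so that it can enter the pentose phosphate pathway. AMS1 encodes the vacuolar alpha-mannosidase, which trims mannose from free oligosaccharides and reaches the vacuole as a cargo of selective autophagy, together with the aminopeptidase Ape1 and the receptor Atg19. MLO1 is named as the gene table names it, and no role is given to it here. None of the 3 genes lies on chromosome IV, whose centromere the study removes.

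XKS1 (YGR194C) is on the reverse strand of chromosome VII, from 886073 to 887875 (sacCer3, the R64 assembly). In both codes a single region was listed over its start at 180 min, at chrVII:887849-888012 in code 8 and chrVII:887849-888011 in code 11. Of these bases, 27 lie inside the coding sequence and the rest in the 1006 bp between XKS1 and the divergent gene SKI6, a subunit of the RNA exosome. The summit was 53 bp upstream of the coding start in code 8 and 54 bp in code 11. No list had a summit in the promoter window of SKI6, whose start is 954 bp from the XKS1 summit of code 8.

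AMS1 (YGL156W) is on the forward strand of chromosome VII, from 210416 to 213667. Its region was at chrVII:210158-210327 in code 8 and chrVII:210158-210322 in code 11, wholly inside the 366 bp between AMS1 and the upstream gene ARI1, which is read in the same direction. The summits were 173 and 175 bp upstream of the coding start. ARI1 is an NADPH-dependent aldehyde reductase, and its own promoter summit was present in all 4 lists.

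MLO1 (YMR252C) is on the reverse strand of chromosome XIII, from 775315 to 775719. Its region was at chrXIII:775752-775914 in code 8 and chrXIII:775754-775914 in code 11. It fills most of the 226 bp between MLO1 and YMR253C, a gene on the same strand whose end faces the MLO1 start. The summits were 113 and 115 bp upstream of the coding start. The 3 promoters thus differ in setting, with 1 divergent and 2 tandem gene pairs, and in the distance of the summit from the gene.

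**Figure D1:**
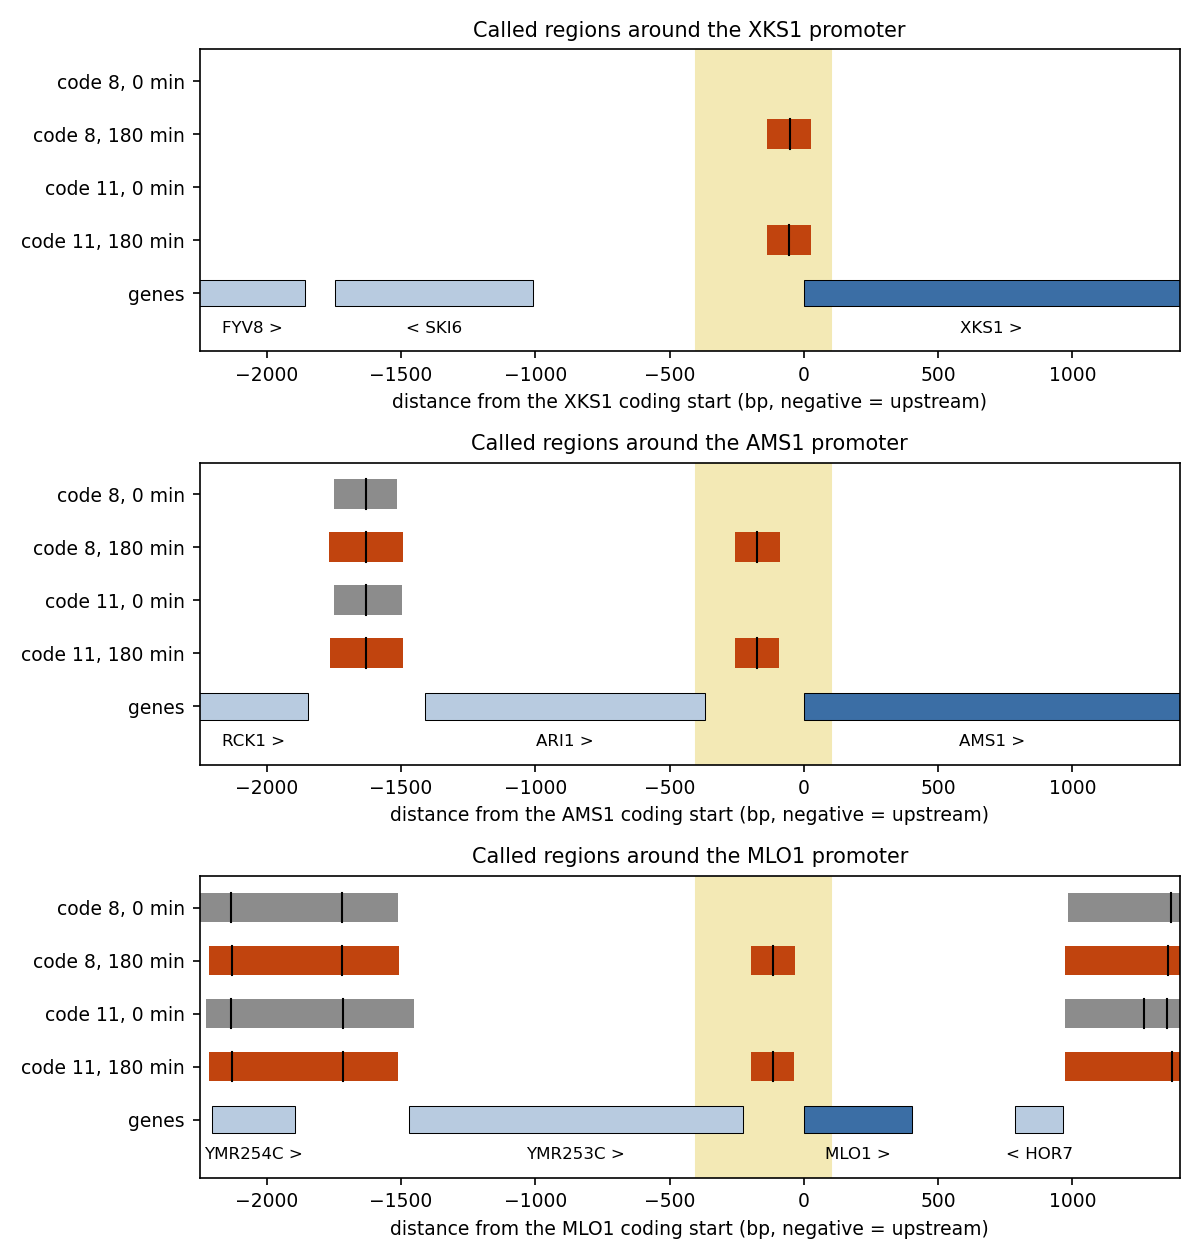
Called regions (boxes) and their summits (black lines) around each member in the 4 lists, against distance from the coding start in bp, with genes drawn below and arrows for their direction. The shaded window runs from 400 bp upstream to 100 bp downstream, and in all 3 panels it holds a region only in the 2 lists of 180 min (orange). Regions outside the window recur at 0 min (grey) in the AMS1 and MLO1 panels, and the XKS1 panel has none.

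The height of a summit is given in 2 ways. The fold is the peak caller's linear ratio of the summit to its local background, as the authors deposited it. The relative pileup is the peak caller's count over the summit, recovered from the deposited fold and p, divided by the genome-wide background of the same list. That background is the most common local background of the list. Whether the count is of fragments, reads or cut ends is not known. The interval of the relative pileup is an exact 95% Poisson interval that covers counting error only and takes the counted units as independent.

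At XKS1, no sub-peak was listed at 0 min in code 8 or code 11, and no region overlapped the window. At 180 min the fold was 2.10 in code 8 and 2.02 in code 11, and the -log10 q was 141 and 164. The relative pileup was 3.37 (interval 3.20 to 3.55) in code 8, from a pileup of 1482, and 3.69 (3.52 to 3.86) in code 11, from 1889. The intervals of the codes meet at their ends, so the codes gave close heights at this promoter, with a ratio of 1.09.

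At AMS1, the 0 min lists again held nothing in the window. At 180 min the fold was 2.23 in code 8 and 2.11 in code 11, with a -log10 q of 108 and 105. The relative pileup was 2.24 (2.10 to 2.38) in code 8, from a pileup of 982, and 2.12 (1.99 to 2.25) in code 11, from 1084. AMS1 is the lowest of the members in pileup in both codes and the highest in fold. Its local background was the most common value of the list, which served as the genome-wide one. The ratio was thus 1.00 in code 8 and 1.000 in code 11.

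At MLO1, the window was empty at 0 min in both codes. At 180 min the fold was 1.72 in code 8 and 1.73 in code 11, with a -log10 q of 79.4 and 101. The relative pileup was 3.32 (3.16 to 3.50) from a pileup of 1460 in code 8 and 3.55 (3.39 to 3.72) from 1818 in code 11. MLO1 therefore stood near XKS1 in pileup and below it in fold. Its local background was 1.93 and 2.05 times the genome-wide one in codes 8 and 11, against 1.61 and 1.82 times at XKS1.

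The members were called as 3 of 3 in each code. Over all protein-coding genes without a promoter summit at 0 min, 136 of 2116 (6.43%) had one at 180 min in code 8 and 92 of 2064 (4.46%) in code 11. Among 1983 genes without one at 0 min in both codes, 22 (1.11%) had one at 180 min in both, and among 1500 without any region over the window at 0 min, 15 did (1.00%). These shares are given beside the members and nothing is read from them, since the same calls chose the members.

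The 15 genes stand in an order by the lower of their 2 values of -log10 q, and the members are its first 3, with 141 for XKS1, 105 for AMS1 and 79.4 for MLO1. The next are GCV1, of the glycine cleavage system, with 77.8, LAM1, a sterol transfer protein family member, with 76.9, and the pair HTL1 and MAK31, which share a region, with 76.2. The step from MLO1 to GCV1 is thus small. When an older region over the window is allowed, the other genes highest by this measure were RNR2, UBP9, HO, GCV1 and LAM1, a choice that goes by height and not by nearness to the members. RNR2, the small subunit of ribonucleotide reductase, had 3354 and 4205 in codes 8 and 11. UBP9, a deubiquitinase, had 236 and 271, and HO, the mating-type switching endonuclease, had 115 and 135. At RNR2, UBP9 and HO a region without a summit in the window was already listed at 0 min in at least 1 code, and the RNR2 and UBP9 regions were over 1000 bp wide. The HO region was 179 bp wide in both codes with 1 summit, close to the form of the members described next.

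**Figure D2:**
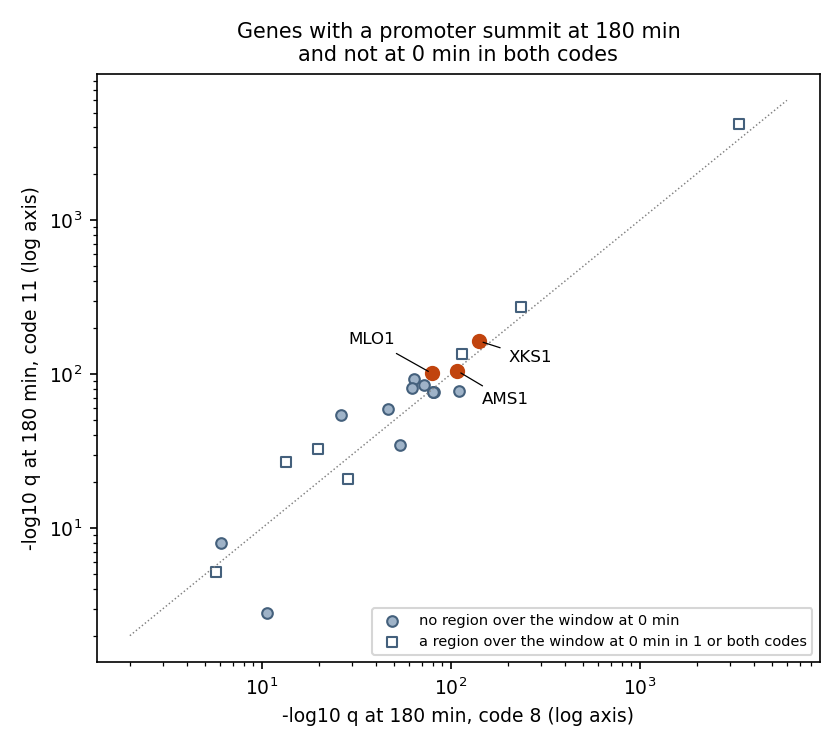
The -log10 q of the promoter summit at 180 min in code 8 (x, log axis) and code 11 (y, log axis) for the 22 genes with a summit at 180 min and not at 0 min in both codes; the dotted line marks equal values. The members (orange) lie near the line, and the genes higher than XKS1 in both codes, RNR2 and UBP9, had a region over the window at 0 min (open squares).

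The members share the form of their regions, and many other newly listed promoters have it too. Each region held 1 summit, 79 to 85 bp from its lower end, and was 161 to 170 bp wide. XKS1 measured 164 bp in code 8 and 163 bp in code 11, AMS1 170 and 165 bp, and MLO1 163 and 161 bp. The narrowest region in any of the 4 lists was 150 bp wide, and the median region at 180 min 426 bp in code 8 and 423 bp in code 11. Only 2.43 to 4.42% of the regions of a 180 min list were narrower than a member's. Among promoter summits listed at 180 min where no region lay over the window at 0 min, members included, the median region width was 176 bp in code 8 and 172 bp in code 11. Of these, 35 of 84 and 20 of 45 lay in regions of at most 170 bp, as wide as the widest member. Of the 14 distinct regions of the 15 genes called so in both codes, 8 were at most 180 bp wide in both, and LAM1, with 168 and 160 bp, is 1 example. The narrow form is therefore not particular to XKS1, AMS1 and MLO1.

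The summits themselves stood from the lower part to somewhat above the middle of their lists. In relative pileup XKS1 stood at percentile 57.7 of the code 8 sub-peaks and 61.1 of the code 11 ones, MLO1 at 57.0 and 59.2, and AMS1 at 33.6 and 29.8. In fold they stood at percentiles 26.9 to 44.2, and in -log10 q at percentiles 35.2 to 46.0. Among single-summit regions whose fold lay within 5% of the XKS1 value, the median width was 196 bp in code 8 and 184 bp in code 11, and 25 of 212 and 39 of 206 were as narrow as XKS1 or narrower (counts that include XKS1). For AMS1 the median was 205 and 192 bp, with 17 of 199 and 25 of 209 as narrow. For MLO1 it was 181 and 186 bp, with 33 of 127 and 24 of 116.

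The position of the regions recurred between the codes to within a few bases. Summits at 180 min differed by 1 bp at XKS1, 2 bp at AMS1 and 2 bp at MLO1, while 42.9% of the 6026 summits matched between the codes differed by at most 2 bp and the median difference was 3 bp. Region starts differed by 0, 0 and 2 bp, and region ends by 1, 5 and 0 bp.

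**Figure D3:**
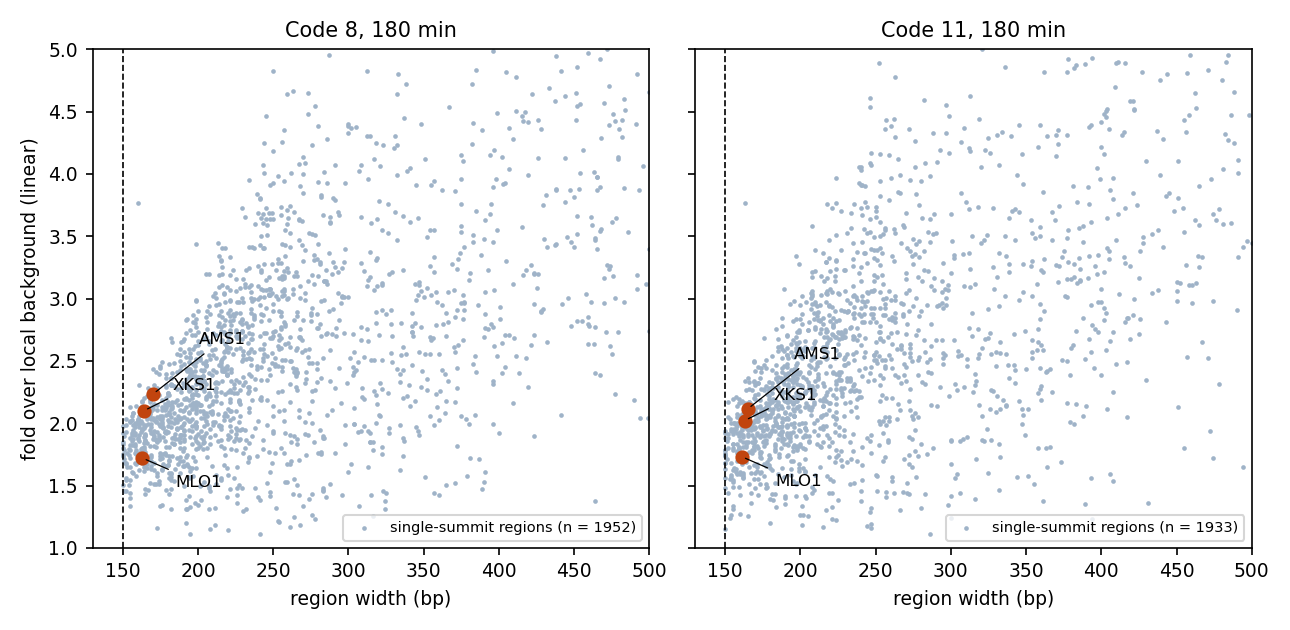
Fold over local background (y, linear) against width in bp (x) of all regions with a single summit at 180 min, 1952 in code 8 and 1933 in code 11, with the members in orange and the narrowest listed width, 150 bp, as a dashed line. Regions wider than 500 bp or above fold 5 are outside the axes. The members lie at the narrow edge, at widths of 161 to 170 bp.

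Regions as narrow as these changed call often, and in both directions. Of the regions 161 to 170 bp wide at 180 min, 26 of 90 (28.9%, exact Clopper-Pearson interval 19.8 to 39.4%) had no region at 0 min in code 8, and 11 of 107 (10.3%, 5.24 to 17.7%) in code 11. The members are 3 of the 26 and 3 of the 11. In the opposite direction, of regions this wide at 0 min, 24 of 88 (27.3%, 18.3 to 37.8%) had none at 180 min in code 8 and 36 of 107 (33.6%, 24.8 to 43.4%) in code 11. These intervals cover counting error only.

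The call changed in both codes at once in similar numbers each way. Of 36 regions that were 161 to 170 bp wide at 180 min in both codes, 4 (11.1%) had none at 0 min in either, the 3 members and a region of chromosome IV at 485803 to 485970. Of 38 regions that were as wide at 0 min in both codes, 4 (10.5%) had none at 180 min in either. Wide regions rarely changed call: of those from 400 bp, 8 of 1929 (0.415%) at 180 min had no 0 min region in code 8 and 5 of 1936 (0.258%) in code 11.

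**Figure D4:**
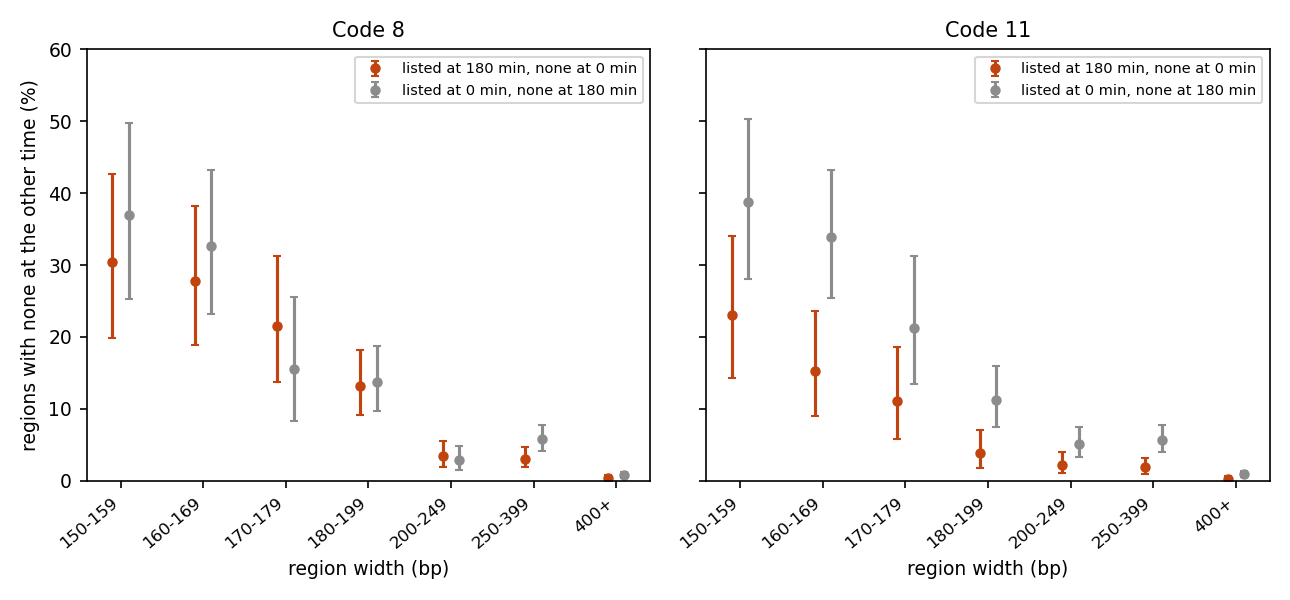
Share of regions with no overlapping region at the other time (y, %) by width class in bp (x), for regions listed at 180 min (orange) and at 0 min (grey), with exact Clopper-Pearson 95% intervals for counting error. The share is 23.1 to 38.8% in the narrowest class and at most 0.877% from 400 bp; for 0 min regions it is higher at 250 to 399 bp than in the class before, with 5.75 against 2.83% in code 8 and 5.65 against 5.10% in code 11.

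Some of the narrowest regions listed at 0 min reached the members' heights. Of the 78 regions of 150 to 160 bp in code 8 at 0 min, 57 had a fold of at least 1.72, the lowest of the members, and the highest fold was 2.37. In code 11 these were 70 of 100, and the highest was 2.23. The median fold of these narrow regions was 1.90 in code 8 and 1.83 in code 11. In each code that is above the MLO1 fold and below those of XKS1 and AMS1. Where a region of 161 to 170 bp at 180 min had a counterpart at 0 min, the counterpart was wider by a median of 5.00 bp in code 8 and 3 bp in code 11. For regions this wide at 0 min, the median width difference of the 180 min counterparts was 3.50 bp in code 8 and 0 bp in code 11. Nothing is read from these differences, since the regions were picked by width. The lists give no signal outside called regions, so whether the members' regions fell below the narrowest listed width at 0 min was not tested.

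Some numbered peaks are also missing from the lists. The numbers follow the score from the highest down, and 332 of the 7170 numbers at 0 min in code 8 and 301 of 7394 in code 11 had no entry. All of them lay below the entries with a -log10 p of about 123 in code 8 and 165 in code 11. Between entries with a -log10 p of 80 to 170, the range of the members at 180 min, 9 numbers were missing at 0 min in code 8 and 31 in code 11. Their positions are not known here, and whether a member is among them was not tested.

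The depth of the lists moved in opposite directions with time. In code 8 the genome-wide background pileup, a measure of relative depth, went from 413.8 to 439.2, and in code 11 it went from 601.7 to 512.2. The members were listed at 180 min in both, at the higher depth in code 8 and at the lower depth in code 11. Whether depth plays a part in these calls was not tested.

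The peaks around the members were mostly listed at both times. Within 1 kb of the window no other region was listed at either time at XKS1 and AMS1, and 1 was listed at MLO1, in all 4 lists. At AMS1 the nearest summit was that of the ARI1 promoter, 1231 bp from the window, and it was listed at both times. Its relative pileup moved from 3.16 to 3.32 for code 8, a log2 change of 0.07. For code 11 it moved from 3.17 to 3.36, a change of 0.08. Over all matched summits the median log2 change was -0.03 in code 8 (5th to 95th percentile -0.25 to 0.28) and 0.04 in code 11 (-0.18 to 0.22), so ARI1 lay inside that range.

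At MLO1 the region within 1 kb lies in front of HOR7, a gene of the hyperosmotic response. Its summit nearest to MLO1 with a match at both times moved from a relative pileup of 10.6 to 10.4 for code 8, a log2 change of -0.03. For code 11 it moved from 9.41 to 12.4, a change of 0.40. The code 11 list of 0 min also had another summit in this region, inside the HOR7 window, at 9.48, which the 180 min list lacked. On the other side the promoter summit of YMR253C moved from 5.26 to 5.44 for code 8, a change of 0.05. For code 11 it moved from 5.24 to 6.04, a change of 0.21. The changes next to MLO1 in code 8, and that of YMR253C in code 11, lay within the 5th to 95th percentile range of all matched summits, and that at HOR7 in code 11 lay above it.

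XKS1 stood alone over several kilobases. At lower coordinates its nearest summit at 180 min was 3171 bp from the window in code 8 and 3128 bp in code 11. It matched a 0 min summit in code 8, with a log2 change of 0.14, and none in code 11. At higher coordinates the nearest was 3839 and 3841 bp away, and its log2 change was 0.03 and 0.10.

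The pentose phosphate and pentose-use genes were compared with XKS1 as a list of 15 genes. XKS1 was the only one of them that changed call, gained in both codes, and 0 were lost. A promoter summit stood in all 4 lists at 9 genes. Of all 6002 protein-coding genes, only 2116 in code 8 and 2064 in code 11 lacked a promoter summit at 0 min. Having one is thus usual, and nothing is read from the count of 9. TKL1, the main transketolase, moved in relative pileup from 9.23 to 9.0 for code 8 and from 9.48 to 10.1 for code 11. Its paralog TKL2 moved from 6.48 to 6.35 and from 6.34 to 6.55. GND1, a 6-phosphogluconate dehydrogenase, moved from 5.26 to 5.16 and from 5.29 to 5.79. All were named from genes with a promoter summit in all 4 lists, and XKS1 was chosen for lacking one at 0 min. That contrast was thus fixed by the choice of genes. TAL1, the transaldolase, moved from 6.10 to 5.86 and from 5.66 to 6.75. These 4 were named for their high -log10 q, so their height beside the 3.37 and 3.69 of XKS1 is no finding. SOL3, a 6-phosphogluconolactonase, and GRE3, an aldose reductase, were also in all 4 lists and stood below XKS1 at 180 min, with 1.99 and 2.25 for SOL3 and 1.99 and 2.06 for GRE3. SOL4, XYL2 and SOR1 had neither a summit nor a region over the window in any list.

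AMS1 was set in a list of 15 genes for vacuolar hydrolases and their delivery, of which 11 had a promoter summit in all 4 lists. Most protein-coding genes had one at 0 min, as given above, so nothing is read from this count. AMS1 was gained in both codes. ATH1, the acid trehalase, gained a summit in code 8 with a -log10 q of 8.73, within a region already listed at 0 min. APE1, the aminopeptidase that travels with Ams1, moved in relative pileup from 4.63 to 4.99 for code 8 and from 4.51 to 4.78 for code 11. PRB1, the vacuolar protease B, moved from 7.98 to 7.52 and from 6.93 to 8.16. PRC1, carboxypeptidase Y, moved from 6.05 to 5.85 and from 6.05 to 6.70. These genes were named from the 11 listed throughout, and AMS1 was chosen for lacking a summit at 0 min, so that contrast is no finding. PEP4, protease A, moved from 3.90 to 3.98 and from 3.71 to 3.86. The receptor gene ATG19 was likewise among the 11.

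ATG1, the kinase that starts autophagy, changed call in the opposite direction. Its promoter region was 156 bp wide at 0 min in code 8, with a relative pileup of 2.06, and it had no entry at 180 min. In code 11 it was listed at both times, at 156 bp each, with 1.98 and 2.01. It is as narrow a region as those of the members.

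As a check of the cell type, all 6 genes specific to mating type a had a promoter summit in all 4 lists. Most protein-coding genes had one at 0 min, as given above, so this is a weak check. Of 4 genes specific to mating type alpha, 1 had a summit in all lists, and of 6 meiotic genes 1 did. The former was STE3, with a -log10 q of 102 to 153, above the 46.3 to 93.3 of AGA2, a gene specific to mating type a. The latter was HOP1, with 282 to 511. In code 11 MF(ALPHA)2 and the meiotic regulator gene NDT80 each had a promoter summit at 180 min and not at 0 min. That of NDT80 lay in a region of 165 bp with a -log10 q of 79.0. That of MF(ALPHA)2 had a -log10 q of only 5.57 and a relative pileup of 1.22, in a region of 1960 bp. A region already lay over the MF(ALPHA)2 window at 0 min in both codes.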

How the data were processed

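ATAC-seq peak lists of 2 strain codes at 2 times were used as deposited. Tools named, per the submitters' processing notes, were MACS2 2.2.4 and Bowtie2 2.3.4.3, besides HOMER, Picard and SAMtools, with the build sacCer3. No source used here gives aligner settings, filters, a Tn5 shift, or whether duplicate experiments were pooled. The deposited columns hold a score, which is 10 times the -log10 p, truncated; the authors' fold over local background, a linear ratio; and the deposited -log10 p and -log10 q values.

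Summits were made 1-based. A summit counted as a promoter's at up to 400 bp before and 100 bp after a coding start in the RefSeq R64 gene table, and strands came from systematic names. Pileup and local background were solved from the fold and the Poisson p, and 99.1 to 99.8% of pileups were whole within 0.05. The recovery was tested on simulated data. Python 3.11.15, numpy 2.4.6, pandas 2.3.3 and scipy 1.17.1 were used. Read depth is unknown. With 1 list per code and time no test was made. Members, gene lists and rules were chosen with earlier results of these data known. The genes named are the members, genes within 1 kb, the 5 genes with the highest lower -log10 q among those called in both codes, genes of the lists that changed call, and up to 4 more per list with the highest -log10 q in code 8 at 0 min among those listed throughout. HTL1, MAK31, MF(ALPHA)2, NDT80, STE3, AGA2, HOP1, ATG19, SOL3, GRE3 and genes without any summit were added after their values were seen. Promoter sequences were not analysed here.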

Additional observations from a re-analysis of the deposited data

How the results depend on the processing

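The 3 members stayed called at 180 min and not at 0 min in both codes with a -log10 q of at least 50, with windows of 250 bp upstream to 50 bp downstream or 1000 bp upstream to 100 bp downstream, with any region over the window, with lists of equal length, and with summits not made 1-based (added after the data were seen). With regions of at least 180 bp only, also added then, 0 members were called in code 8 and 0 in code 11, by construction, since all are narrower. The -log10 q, 250 bp window, any-region and 1-based settings could not alter the members' calls either. Each member had a -log10 q of at least 79.4, a summit 53 to 175 bp upstream and no 0 min region over the window. The 1000 bp window could not alter the calls of XKS1 and AMS1, where no other region lay within 1 kb. The same calls chose the members, so their staying called is no support. Counting any region over the window lowered the genes called in code 11 from 92 to 61. By definition this setting leaves out genes that already had a region over the window at 0 min. It also adds genes whose 180 min region has no summit in the window. In code 11, 52 genes had a promoter summit at 180 min and no region over the window at 0 min. Scaled by the median summit pileup of the list, the summits stood at 1.14 and 1.22 for XKS1, 0.753 and 0.701 for AMS1, and 1.12 and 1.18 for MLO1 in codes 8 and 11, in the same order within each code. No summit lay within 1 kb of a window, so the planned change of neighbouring summits has no value. Within 2 kb the median log2 change was 0.07 and 0.08 at AMS1 (1 summit) and 0.04 and 0.25 at MLO1 (4 summits), and no summit lay there at XKS1. No paired analysis was possible because the lists carry no replicate number. Leaving out a replicate was not run for the same reason.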
